A study of Mus musculus with 6 samples.

Results

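The Ndrg family (N-myc downstream-regulated genes) comprised 4 genes of 18193 with a probe set of a single gene symbol, and was measured by 10 probe sets: all those to which the platform annotation gives exactly 1 symbol that is Ndrg1, Ndrg2, Ndrg3 or Ndrg4. Of these, 5 belong to Ndrg1, 1 to Ndrg2, 2 to Ndrg3 and 2 to Ndrg4, among 45037 probe sets that are not controls. The family was picked from earlier results on these arrays, in which the log2 signal of Ndrg2 differed between the genotypes. The data are 6 Affymetrix mouse arrays of RNA from isolated pancreatic islets, 3 from VhlhKO and 3 from control mice, 1 islet sample to an array. VhlhKO mice have Vhlh(fl/fl) alleles deleted by RIP2-Cre, a Cre recombinase under the rat insulin promoter, so Vhlh (Vhl in the annotation) is lost in beta cells and stays intact in the other cells of an islet. The controls are labelled as controls of that model, and whether they carry Cre or the floxed alleles is not given in the sources used here. In both genotypes arrays 01, 02 and 03 are labelled 26, 20 and 18 weeks of age, and male, female and male.

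Ndrg proteins have the fold of alpha/beta hydrolases and no known hydrolase activity. Ndrg1 is repressed by Myc proteins, induced by hypoxia through the hypoxia-inducible factors (HIF), and phosphorylated by the kinases Sgk1 and Gsk3. Ndrg2 is best known from glia and muscle and belongs to the genes that mature beta cells keep low. Ndrg3 is a protein whose degradation in human cells depends on the oxygen-sensing hydroxylase Egln1 and on the von Hippel-Lindau protein, and which binds lactate. Ndrg4 is expressed mainly in neurons and heart. The arrays measure transcripts and give no view of these proteins. The von Hippel-Lindau protein marks HIF subunits for degradation, and the comparison asks which transcripts differ when beta cells lack it.

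The stretches before the transcription starts of the family members in the RefSeq promoter table (assembly GRCm38.p6) are shown because Ndrg2 was the member with the largest genotype difference and HIF is the factor that the deletion bears on. The table held 9 starts, 3 of Ndrg2, 2 of Ndrg3 and 4 of Ndrg4. It held none of Ndrg1, which was therefore not searched. The HIF core motif was searched as ACGTG or GCGTG on both strands (CACGT or CACGC in the letters printed), in the 250 bases before each start. For each of the 3 genes the stretch with the most matches is printed 5′ to 3′ on the strand of the gene, with matches in capitals. The Ndrg2 stretch lies at chr14:51913489-51913738 (minus strand), the Ndrg3 stretch at chr2:156991704-156991953 (minus strand) and the Ndrg4 stretch at chr8:95677513-95677762 (plus strand).
Ndrg2: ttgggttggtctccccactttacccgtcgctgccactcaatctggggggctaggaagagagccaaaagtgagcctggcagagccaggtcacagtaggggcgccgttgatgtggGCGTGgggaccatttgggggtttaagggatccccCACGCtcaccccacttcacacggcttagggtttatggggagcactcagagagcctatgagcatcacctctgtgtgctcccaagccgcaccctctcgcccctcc
Ndrg3: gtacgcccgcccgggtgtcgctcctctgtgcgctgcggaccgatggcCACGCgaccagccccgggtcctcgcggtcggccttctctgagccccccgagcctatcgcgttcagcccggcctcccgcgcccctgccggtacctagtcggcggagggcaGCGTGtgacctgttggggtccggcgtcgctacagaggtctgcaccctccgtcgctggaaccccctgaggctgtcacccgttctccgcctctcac
Ndrg4: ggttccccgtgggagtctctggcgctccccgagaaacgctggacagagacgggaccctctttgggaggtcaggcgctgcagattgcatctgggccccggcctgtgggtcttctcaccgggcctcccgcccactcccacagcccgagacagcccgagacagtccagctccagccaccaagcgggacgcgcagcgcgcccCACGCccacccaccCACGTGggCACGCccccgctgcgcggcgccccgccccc
The Ndrg2 stretch held 2 matches, beginning 137 and 103 bases before the start, the Ndrg3 stretch 2, and the Ndrg4 stretch 4, of which 2 overlap in 1 palindrome. At least 1 match was found in 2 of the 3 Ndrg2 stretches, 1 of the 2 Ndrg3 stretches and 2 of the 4 Ndrg4 stretches. A match was present in 38.6% of all 32851 stretches of that length, so the motif is common there. A match is a description of letters, and binding of a factor was not measured.

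Before the family, 3 features of the arrays bear on its values. Vhl itself had signals of 344, 358 and 467 in VhlhKO islets, against 457, 639 and 839 in control islets, on its brighter probe set. The groups overlapped by 1 pair of arrays, and the VhlhKO level was 61.7% of control. An exact permutation test, two-sided, gave p = 0.2, with 0.1 the smallest value that 3 against 3 arrays allow. The position of the probes against the floxed exon was not analysed here. Both arrays numbered 03 are labelled male but carried the female-specific transcript Xist at 7662 (VhlhKO 03) and 11689.6 (control 03), with the Y-linked Eif2s3y at 21.5 and 2.77. On the arrays numbered 01 Xist was at 13.3 (VhlhKO 01) and 35.8 (control 01), with Eif2s3y at 1801 and 1646. The arrays numbered 03 also had the least acinar RNA: the summed signal of 11 acinar enzyme and exocrine genes was 8104 on VhlhKO 03 and 78162.5 on control 03, and between 344503 and 496938 on the other 4 arrays. Values without both arrays numbered 03 are given with the results.

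Ndrg2 was higher on every VhlhKO array than on any control array, and no other gene of the family differed as much. Its single probe set, 1448154_at, had signals of 938, 971 and 1169.8 in VhlhKO islets, against 253, 348 and 205 in control islets. The lowest VhlhKO signal was above the highest control signal by a wide margin, and the VhlhKO arrays lay closer together (highest over lowest 1.25) than the control arrays (1.69). Mean log2 signals were 9.996 ± 0.17 in VhlhKO and 8.04 ± 0.38 in control islets (SD, n = 3 each), a 3.89-fold difference. On the log2 scale this is 1.96 (SE 0.30), with a 95% interval from 1.28 to 2.64. The same-numbered pairs differed by 1.89, 1.48 and 2.51, and the difference was 1.69 without both arrays numbered 03. All control signals lay above the array medians, which ran from 102 to 123, and the lowest was 1.87 times the median of its array. With 64 added to every signal before log2, as an alternative, the difference was 1.73. The part of dim control signals in the fold was not tested further, and detection calls were not used.

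Ndrg4 was higher in VhlhKO islets on both of its probe sets by similar amounts, with groups that overlapped and 1 array that stood out. Probe set 1426615_s_at had signals of 4786, 3584 and 8258 in VhlhKO islets, against 3138, 3261 and 3672 in control islets. VhlhKO 03 was the highest array, and VhlhKO 02 lay below the highest control. Probe set 1436188_a_at had signals of 1593, 2009 and 2769.7 in VhlhKO islets, against 1249.6, 1661 and 1235 in control islets, again with VhlhKO 03 highest. The log2 differences were 0.64 (SE 0.33, 95% interval from -0.11 to 1.39) and 0.60 (SE 0.31, from -0.09 to 1.29), or 1.56-fold and 1.51-fold. In the pairs numbered 01, 02 and 03 the first probe set differed by 0.61, 0.14 and 1.17, and the second by 0.35, 0.27 and 1.17. Without both arrays numbered 03 the differences were 0.37 and 0.31.

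Ndrg1, the family's textbook HIF target, differed by at most 1.35-fold between the genotypes, and its 5 probe sets did not all point one way. The brightest by the rule that avoids probe sets of the _x_at kind, 1420760_s_at, had signals of 11007, 11710.4 and 7095 in VhlhKO islets, against 10472, 8432 and 4989.9 in control islets. The groups overlapped, and the array numbered 03 was the lowest of each genotype. The 1.28-fold difference is 0.35 on the log2 scale (SE 0.34, 95% interval from -0.41 to 1.11), and it was 0.05 without control 03. Probe set 1456174_x_at, of a kind that can also bind transcripts of other genes, had signals of 12195, 9180.2 and 9056 in VhlhKO islets, against 8549.9, 6869.98 and 6950.3 in control islets. Here every VhlhKO signal was above every control signal, with a log2 difference of 0.44 (SE 0.25, 95% interval from -0.12 to 0.99) and pair differences between 0.38 and 0.51.

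The 3 dimmer Ndrg1 probe sets overlapped between the groups. Probe set 1450976_at had signals of 996, 1309 and 1165 in VhlhKO islets, against 1095, 1101 and 616 in control islets, a log2 difference of 0.34 that was 0.06 without both arrays numbered 03. Probe set 1423413_at had signals of 1098, 649 and 501 in VhlhKO islets, against 526, 638 and 468 in control islets, and its log2 difference of 0.40 came to 0.08 without VhlhKO 01. Probe set 1450977_s_at had signals of 409, 562 and 354 in VhlhKO islets, against 609, 576 and 300.2 in control islets, a log2 difference of -0.12 (SE 0.36) that was -0.30 without both arrays numbered 03. Without those arrays the log2 differences of 1420760_s_at, 1456174_x_at and 1423413_at were 0.27, 0.47 and 0.54. Probe sets 1423413_at and 1450977_s_at were each lowest on the array numbered 03 of both genotypes, the arrays with the least acinar RNA. The part of acinar RNA in these values was not tested. Averaged over its 5 probe sets, Ndrg1 differed by 0.28 (SE 0.27), or 1.21-fold.

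Ndrg3 had no common direction, since its 2 probe sets differed in sign and both overlapped between groups. The brighter, 1417663_a_at, had signals of 3455, 2088 and 3012 in VhlhKO islets, against 2853, 2162 and 2293 in control islets. The dimmer, 1417664_a_at, had signals of 149, 353 and 283 in VhlhKO islets, against 408, 309 and 265 in control islets. VhlhKO 01 had the highest signal of all arrays on the first probe set and the lowest on the second. The log2 differences were 0.21 (SE 0.29, 95% interval from -0.45 to 0.87) and -0.39 (SE 0.39, from -1.27 to 0.49), and the second was 0.14 without both arrays numbered 01. Without both arrays numbered 03 they were 0.11 and -0.63. The interval of the brighter probe set leaves room for changes of either sign, so these arrays do not show that the Ndrg3 transcript was the same in both genotypes.

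**Figure D1:**
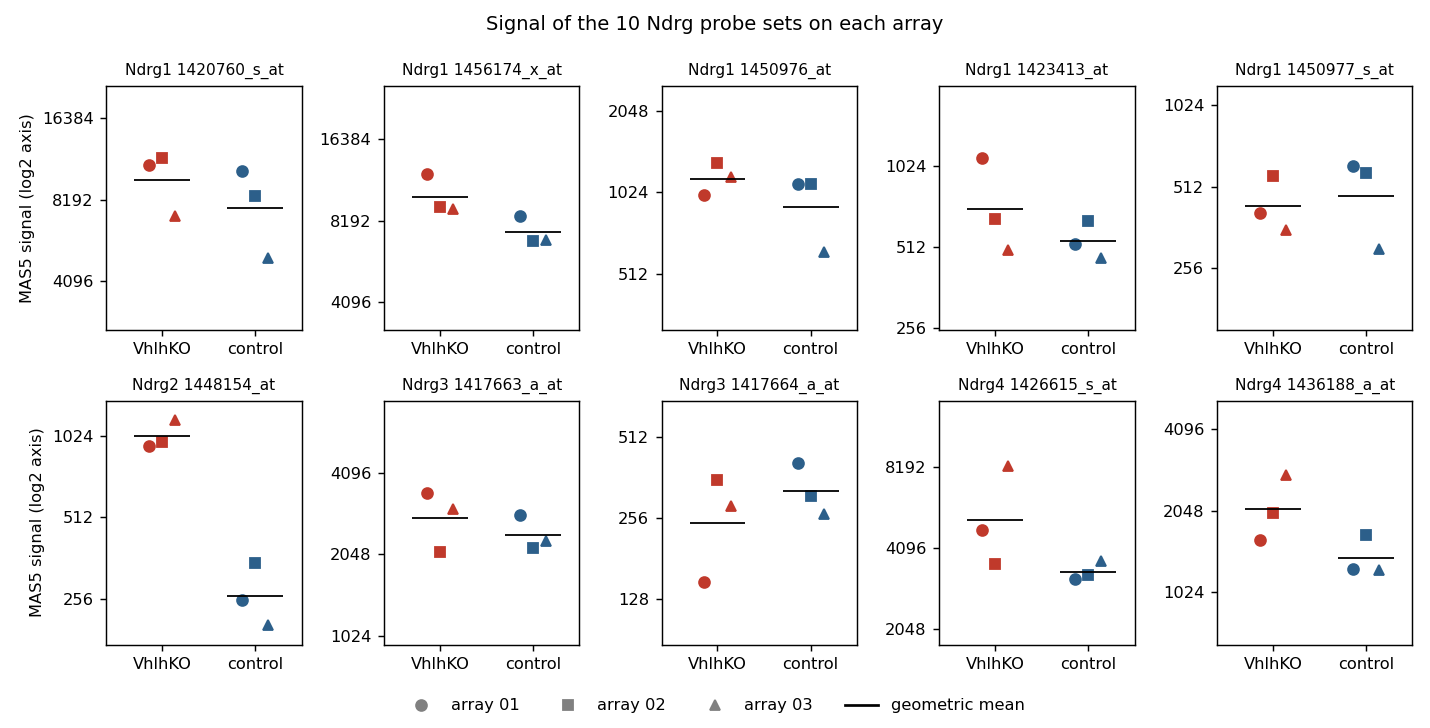
MAS5 signal (log2 axis, each panel spanning the same number of doublings) of the 10 Ndrg probe sets on the 3 VhlhKO arrays (red, left) and the 3 control arrays (blue, right); symbols mark the array number and lines the geometric mean of each group. Ndrg2 and Ndrg1 1456174_x_at are the 2 panels in which all VhlhKO signals lie above all control signals.

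The family as a whole was read against all probe sets. All 10 probe sets passed the filter on dim signals (above the array median on at least 3 of 6 arrays), as did 23093 in all, and each was above the median on all 6 arrays. By limma with Benjamini-Hochberg adjustment over all 23093, 0 of the 10 passed an adjusted p of 0.05, where 0.0173% of all did (4 probe sets, and 0 without both arrays numbered 03). At an unadjusted p under 0.05 there was 1, Ndrg2, where 2.17% of all did. These values and the intervals come from the fit without the pairs. With the replicate number as a block the share of all was 4.2% and there were 2 members, Ndrg2 and Ndrg4 1426615_s_at, whose interval then ran from 0.05 to 1.23. Signals did not overlap between the groups on 2 of the 10 probe sets, where 6.35% of all did not. Both were higher in VhlhKO, where 3.36% of all had every VhlhKO signal higher. The log2 difference was above 0 on 8 of the 10 and below 0 on 2, where 48% of all were above 0. The median log2 difference was 0.37 over the 10 and -0.02 over all tested. Because the genotype difference of Ndrg2 was known when the family was picked, these counts and the intervals describe the members and test nothing, and probe sets of 1 gene are not separate measurements of it.

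**Figure D2:**
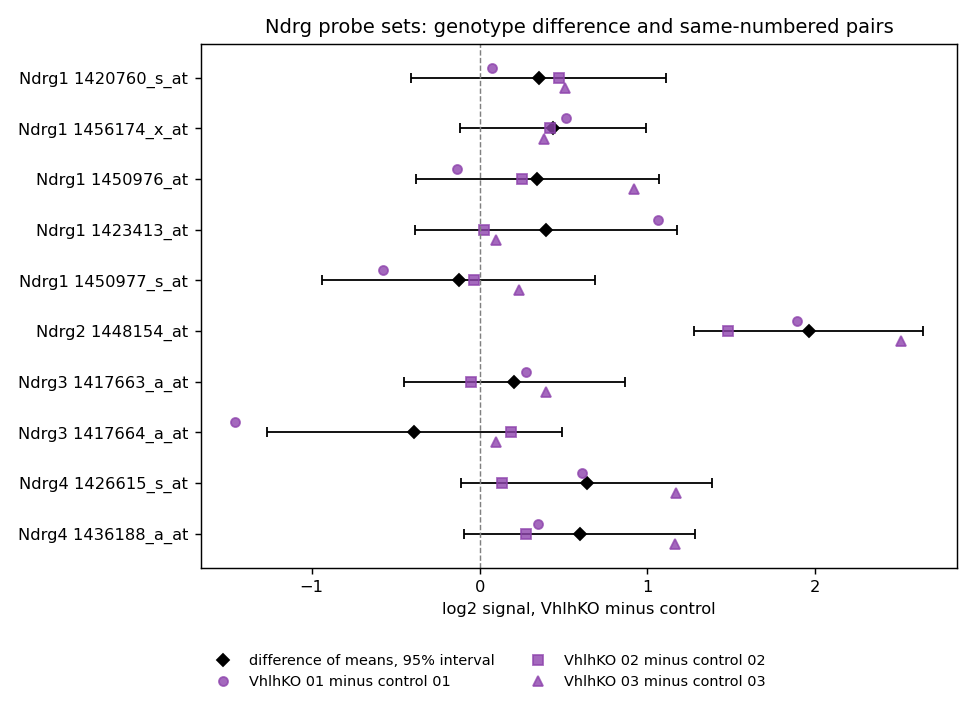
Log2 signal difference, VhlhKO minus control, of each Ndrg probe set: diamonds are the difference of group means with limma's 95% interval, and purple symbols are the differences of the 3 same-numbered pairs. Ndrg2 sits at 1.96 with all 3 pairs at 1.48 or more, while the other 9 probe sets lie between -0.39 and 0.64 with intervals that include 0 in this fit without the replicate block.

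The HIF target list gave a scale for Ndrg1. Of 35 listed genes 28 were tested, 27 of which had a positive and 1 a negative log2 difference (Vegfa, the vessel growth factor, -0.46), with a median of 1.54. In the fit over all probe sets 1 of the 28 passed, Ak4, a mitochondrial adenylate kinase (log2 difference 6.31, SE 0.54, limma adjusted p 0.0167, with dim control signals of 16.7 to 72.1), and 23 had an unadjusted p under 0.05. The Ak4 call is not a firm one: 0 genes of the list passed without VhlhKO 01, without VhlhKO 03, without control 01, without both arrays numbered 01 or without both numbered 03. The median without both arrays numbered 03 was 1.50. VhlhKO signals were all higher for 19 of the 28, where 3.36% of all probe sets were. They were all lower for 1, Vegfa. Of all probe sets tested, 48% had a log2 difference above 0 and 2.17% an unadjusted p under 0.05. Egln3, a hydroxylase that acts on HIF (3.66, SE 0.45), Ldha, lactate dehydrogenase A (2.95, SE 0.38), Pfkp, a phosphofructokinase (2.31, SE 0.32), and Adm, which encodes adrenomedullin (2.92, SE 0.44), had limma adjusted p-values of 0.0762, 0.0908, 0.128 and 0.215. Ak4, Egln3 and Adm were above the array median on 3 arrays, those of VhlhKO, and so passed the filter through the group in which they were high. Their control signals lay below every array median, which makes the size of their differences uncertain. With the filter on all 6 arrays the median of the list was 1.38. The Ndrg1 probe set of largest difference, at 0.44, was exceeded by 24 of the 28 HIF targets, and its brightest non-_x_at probe set by 25. Ndrg2 was exceeded by 8 of the 28. Each of these counts includes Ak4, Egln3 and Adm, which passed the filter through the VhlhKO arrays only.

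Ndrg2 was also set beside other genes that beta cells keep low. All 22 tested genes of 26 listed had a positive log2 difference, where 48% of all probe sets did, with a median of 0.77. By limma 0 passed over all probe sets. An unadjusted p under 0.05 was found for 7, where 2.17% of all probe sets had one. The largest difference was that of Ldha, which is on the HIF list too, and Ndrg2 exceeded the other 21. Igfbp4, a binding protein of insulin-like growth factors, differed by 1.27 (SE 0.37), Cat, the catalase gene, by 0.92 (SE 0.27), Yap1, a transcriptional coactivator, by 0.81 (SE 0.32) and Fcgrt, an IgG receptor, by 0.91 (SE 0.37). None of these 4 passed (limma adjusted p of 1 each). The mean difference of the list in pairs 01, 02 and 03 was 0.57, 0.55 and 1.34, and Ndrg2 was likewise largest in the pair numbered 03. Fibroblast, pericyte and stellate markers had mean differences of 0.79, 0.50 and 1.37 in those pairs, and the list holds genes that stromal cells express, such as Cxcl12 and Itih5. The part of stromal cells in the values of this list was not tested.

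**Figure D3:**
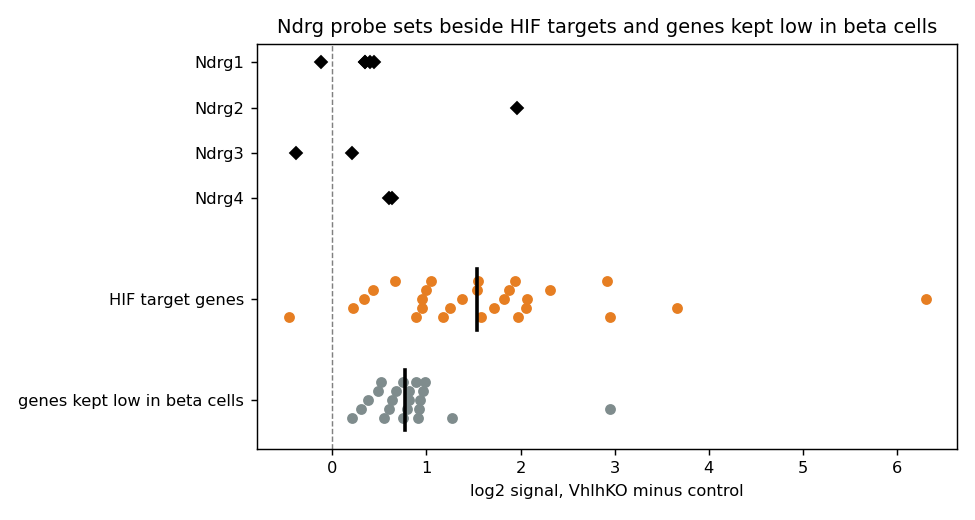
Log2 signal difference, VhlhKO minus control, of the Ndrg probe sets (black diamonds), of 28 HIF target genes (orange) and of 22 genes kept low in beta cells (grey), 1 point a probe set or gene, with black bars at the list medians of 1.54 and 0.77. Ndrg2 lies among the HIF targets, and the Ndrg1 probe sets lie near their lower end.

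Transcripts of the factors and kinases that act on Ndrg genes and proteins did not pass in any case. Of 16 transcription factors 12 were tested, 5 with a positive and 7 with a negative difference, and a median of -0.05. By limma 0 were called and 1 had an unadjusted p under 0.05, where 2.17% of all probe sets did. That was Epas1, which encodes HIF-2 alpha, with signals of 6036, 5262 and 9207 in VhlhKO islets, against 3669, 3865 and 4941 in control islets, and no overlap (0.69, SE 0.29). Hif1a differed by -0.44 (SE 0.35), Egr1, an immediate-early factor, by 0.58 (SE 0.54), Sp1 by -0.29 (SE 0.27) and Zbtb17, a partner of Myc, by 0.41 (SE 0.40). Of 10 kinases 9 were tested, 3 higher and 6 lower, 0 called and 0 at an unadjusted p under 0.05. Sgk1, the kinase that phosphorylates Ndrg1, had signals of 940.1, 2433 and 3370 in VhlhKO islets, against 947, 1571 and 1288 in control islets (0.67, SE 0.46), with nearly equal signals in the pair numbered 01. Gsk3b differed by -0.14 (SE 0.31), Prkaca, a catalytic subunit of protein kinase A, by -0.46 (SE 0.35), Sgk2 by -0.29 (SE 0.41) and Akt2 by -0.14 (SE 0.35). Of 16 listed partners and trafficking genes 8 were tested, 3 higher and 5 lower, with 0 called and 0 at an unadjusted p under 0.05. Among them the adhesion genes Cdh1 (-0.25, SE 0.30) and Ctnnb1 (0.15, SE 0.22) and the endosomal GTPase gene Rab4a (-0.18, SE 0.42) overlapped between groups, as did Stub1, a ubiquitin ligase (0.27, SE 0.27), and Atp1b1, a sodium pump subunit (0.16, SE 0.26). Each of these genes had a limma adjusted p of 1.

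Markers of several other cell types in the preparations mostly had positive differences, as Ndrg2 and Ndrg4 did, and none passed. Over all probe sets 48% were above 0, and 2.17% had an unadjusted p under 0.05 (4.2% with the replicate block). Of 12 tested Schwann cell, glial and neural markers (of 16 listed) 11 were higher, 0 passed by limma and 3 had an unadjusted p under 0.05, and the summed signal of the 14 with a probe set ran from 11404 to 14682 in VhlhKO and from 9141 to 9731 in control islets. That sum is mostly Ncam1, which endocrine cells also express: without it the sums were 3558, 6440 and 8233 on VhlhKO 01, 02 and 03 and 3518, 4593 and 3569 on control 01, 02 and 03, and VhlhKO 01 lay below 2 of the controls. Their mean log2 difference was 0.20, 0.44 and 1.75 in the pairs numbered 01, 02 and 03, and Ndrg2 and Ndrg4 also differed most in the pair numbered 03. The glial marker S100b lay near the array medians, above them on 3 of the 6 arrays, at 83.7, 150 and 131 in VhlhKO and 76.9, 108 and 29.6 in control islets, and no marker was at 0. The brightest of the list were Ncam1 (0.28, SE 0.24), Mbp (-0.41, SE 0.33) and Pmp22 (0.76, SE 0.43). Fibroblast, pericyte and stellate markers were higher in 12 of 14, with 0 called by limma and 4 at an unadjusted p under 0.05 (8 with the replicate block), and had summed signals of 7480, 12213 and 24752 on VhlhKO 01, 02 and 03 and from 5078 to 8272 in control islets. Endothelial markers were higher in 11 of 11 tested, with 0 called by limma and 2 at an unadjusted p under 0.05 (4 with the replicate block), and over 12 with a probe set had sums from 12321 to 16438 in VhlhKO and from 9526 to 10412 in control islets. The endothelial marker not tested, Tie1, lay below the median of every array and had a negative difference (-0.23, SE 0.56). The part of these cells in the Ndrg2 and Ndrg4 values was not tested. In whole islets more or fewer cells of a type and more or less RNA per cell cannot be told apart.

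Of 11 beta cell markers 3 had a positive and 8 a negative difference, with a median of -0.25, pair means of -0.36, -0.20 and -0.36, 0 called by limma and 0 at an unadjusted p under 0.05 (2, both lower, with the replicate block). Signals of 2 of them, Neurod1 (-0.41, SE 0.23) and Glp1r (-0.83, SE 0.38), were lower on every VhlhKO array, and Ucn3 (-0.90, SE 0.42) and Trpm5 (-0.84, SE 0.43) overlapped. These 4 were named after their values were seen. Of all probe sets, 6.35% did not overlap between the groups, in either direction. The sums of the list are set by its brightest genes and overlapped between the groups, from 102328 to 172973 in VhlhKO and from 128353 to 173292 in control islets, with Iapp (0.05), G6pc2 (-0.06) and Ins2 (0.39) the brightest. Sums of alpha, delta and PP cell markers (Ttr, Gcg and Ppy the brightest) ran from 152655 to 242163 and from 162306 to 194074, those of duct markers (Epcam, Krt8, Krt7) from 16471 to 33228 and from 15830.4 to 29424, and those of leukocyte markers (Csf1r, C1qa, Lyz2) from 3781 to 6617 and from 3425 to 6089, VhlhKO before control in each case. Differences were positive in 8 of 8, 4 of 7 and 6 of 7 of these lists, with 0 called by limma and 0, 1 and 0 at an unadjusted p under 0.05 (1, 1 and 0 with the replicate block). The 4 duct markers include Sox9, which was above the array median on the VhlhKO arrays only and passed the filter through them. Acinar genes (Cela1, Prss2 and Ctrb1 the brightest) had negative differences in 11 of 11, with 0 called by limma and 0 at an unadjusted p under 0.05. Their mean log2 difference was 0.01, 0.20 and -3.05 in the pairs numbered 01, 02 and 03, so the list was not lower in the pairs numbered 01 and 02.

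The genes nearest to Ndrg2 and Ndrg4 in profile were found by the root mean square difference between log2 signals, each centred on the gene's mean over the 6 arrays, among 11608 other tested genes. Ndrg2 and Ndrg4 were used because their brightest probe sets had the widest range over the arrays, 2.51 and 1.396 on the log2 scale. Nearest to Ndrg2 were Prmt8 (0.13), Pfkp (0.23), Clmn (0.32), 6330403K07Rik (0.34) and Gm11110 (0.35), against a median of 1.08 over all genes. Prmt8 had signals of 210, 173 and 207 in VhlhKO islets, against 45.9, 59.5 and 37.6 in control islets, where it lay below the array medians. It passed the filter through the VhlhKO arrays only, so its distance and rank rest on dim control signals and are uncertain. Nearest to Ndrg4 were Efnb2, Spry1 and Crip2 (each 0.10), Ehd4 and Myct1 (each 0.13), against a median of 0.61. Each of these 5 was highest on VhlhKO 03, as Ndrg4 was. With 6 arrays many genes lie close by, and nearness is a description only.

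**Figure D4:**
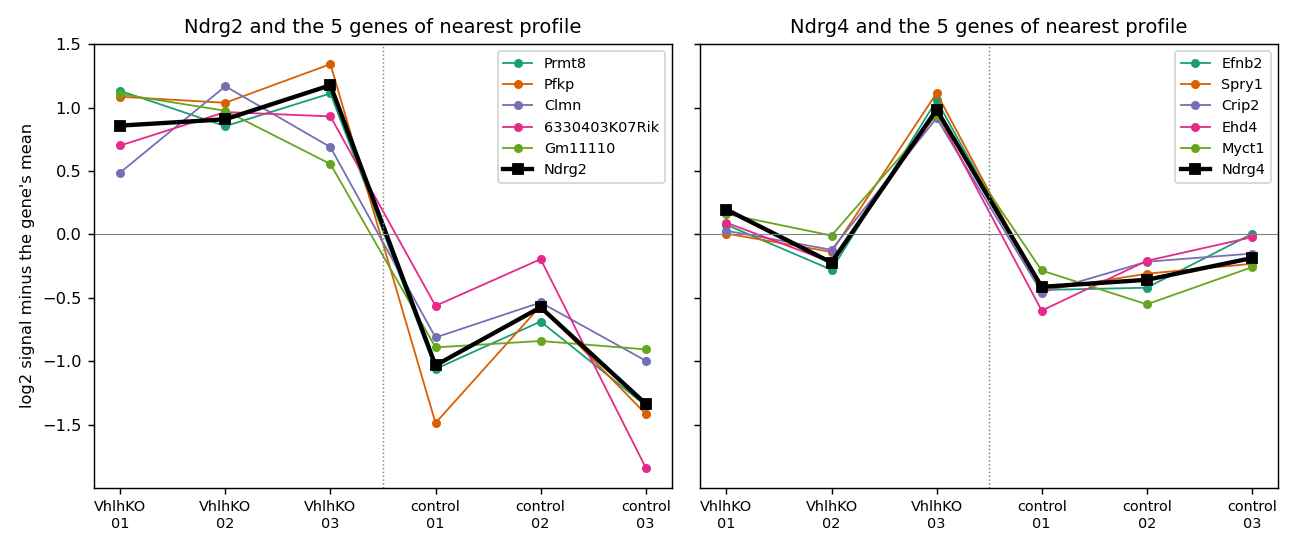
Log2 signal minus the gene's own mean over the 6 arrays (vertical axis) on each array (horizontal axis, VhlhKO left of the dotted line, control right) for Ndrg2 and Ndrg4 (black) and the 5 genes nearest to each. The genes were picked for likeness over these same arrays, so that they follow their member (Ndrg2 apart between the genotypes, Ndrg4 highest on VhlhKO 03) was fixed by that choice.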

How the data were processed

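Islet RNA (30 ng, 2 cycles of amplification, per the labels' protocols) was hybridised to 6 arrays. The deposited values are the authors' linear MAS5 signal intensities, and GCOS 1.4 is named in the submitters' processing notes. Each array's 2% trimmed mean was 500.003. Detection calls and scan dates were not used here, so no signal is called absent, and the number of arrays limits the precision. From 45101 probe sets 64 controls were left out; 34945 of the rest had 1 gene symbol, 932 several and 9160 none. Log2 signals of every probe set above the array median on at least 3 of 6 arrays went into a limma 3.58.1 fit under R 4.3.3 (statmod 1.5.0; eBayes with an intensity trend), and p-values were adjusted by Benjamini-Hochberg at 0.05. The script was tested on simulated data of 23093 probe sets. It recovered 37 of 100 probe sets with a log2 difference of 2 and 87 of 100 with 4, with 4 false calls. A gene that did not pass is thus not shown to be unchanged. Nothing was added before log2, and differences are VhlhKO minus control. A listed gene stands for the brightest of its probe sets (mean log2), avoiding the _x_at kind where the gene has another.

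The members, lists and tests were chosen with earlier results of these data known. Named genes are all Ndrg probe sets, Vhl, up to 5 of lowest p from the regulator, HIF and low-in-beta-cell lists, 3 of highest signal from each marker list, and 5 nearest profiles for 2 members. The sex-linked genes, Vegfa, Pgk1, S100b, Tie1, Sox9, Cxcl12, Itih5 and 4 beta cell markers were named after values were seen. The animals behind an islet sample are not described, so p-values measure the spread between these samples. Arrays of a group carry different age labels and differ in Xist and acinar signal, so that spread holds more than technical variation. Same-numbered arrays share age and labelled sex. Their deviations from the group means correlated at 0.11, 0.40 and 0.38 for 01, 02 and 03, so the numbers were taken to pair the arrays, although VhlhKO 02 with control 01 reached 0.14. Alternatives were quantile normalization, pseudocounts of 16 and 64, other filters, no trend, array weights, 1 probe set or the mean per gene, a replicate block, and leaving out arrays or pairs. Marker sums without the brightest gene were added after seeing the data.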

Additional observations from a re-analysis of the deposited data

Results flagged for a closer look

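The brighter Ndrg3 probe set, 1417663_a_at, differed between VhlhKO and control by 0.28 in the pair numbered 01 and 0.39 in the pair numbered 03, both labelled male, and by -0.050 in the pair numbered 02, labelled female. It is listed because the pairs labelled male and the pair labelled female differed in sign. The value of -0.050 is small beside the SD within groups of 0.30. The difference between the sexes was not tested, and age differs with the pair. The arrays numbered 03 carried Xist with little Eif2s3y. Those numbered 02 did too, with Xist at 19421 (VhlhKO 02) and 18205 (control 02) and Eif2s3y at 12.3 and 9.92. By these transcripts the pairs numbered 02 and 03 were both of female type, so the grouping by label is not one by expressed sex.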

How the results depend on the processing

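Ndrg2 stayed between 1.78 and 2.16 when any 1 array was left out. It was 1.73 with a pseudocount of 64, 1.69 without both arrays numbered 03 and 2.20 without both numbered 02. No alternative turned its sign. The leave-one-out ranges were 0.05 to 0.58 (1420760_s_at), 0.30 to 0.54 (1456174_x_at), 0.07 to 0.49 (1450976_at), 0.08 to 0.65 (1423413_at) and -0.45 to 0.06 (1450977_s_at) for Ndrg1, 0.05 to 0.42 (1417663_a_at) and -0.65 to -0.03 (1417664_a_at) for Ndrg3, and 0.31 to 0.91 (1426615_s_at) and 0.39 to 0.79 (1436188_a_at) for Ndrg4. Without both arrays numbered 01, Ndrg3 1417664_a_at was at 0.14 and Ndrg1 1450977_s_at at 0.10, and the mean of its probe sets put Ndrg3 at -0.09. The sign of Ndrg3 and of 1450977_s_at thus depends on these choices, and the cause was not tested. No Ndrg probe set was called under any alternative run on probe sets.

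The count of 4 called probe sets (2 of Ak4, 1 of Prelid2, 1 of Pgk1) ran from 0 to 6 with 1 array left out, being 0 without VhlhKO 01, VhlhKO 03 or control 01. It was 2 with the filter on all 6 arrays, 2 with no intensity trend, 2 with 1 probe set a gene, and 0 without both arrays numbered 01 or 03. The HIF list had 1 called gene, 0 to 2 with 1 array left out, 0 with the filter on all arrays and without both arrays numbered 01 or 03, 2 with array weights and 4 when probe sets were averaged per gene. Its median of 1.54 was 1.38 with the filter on all arrays and 1.45 to 1.60 with 1 array left out. With the replicate block the count was again 4, the HIF list had 1, and no call of an Ndrg probe set at an adjusted p of 0.05 changed. At an unadjusted p under 0.05 there were 502 probe sets, and 971 with the replicate block, 875 with array weights, 1403 of 45037 with no filter, and 315 to 747 with 1 array left out. Beside Ndrg2, Ndrg4 1426615_s_at was among them with the block, with array weights and without VhlhKO 02, and Ndrg4 1436188_a_at without VhlhKO 01. The Vhl differences of -0.70 and -0.50 ran from -0.92 to -0.48 and from -1.16 to -0.10 with 1 array left out, alternatives chosen after seeing the data.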

Other observations

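Within each genotype the Ndrg probe sets varied with the array, each of 1 age. On Ndrg1 1420760_s_at the VhlhKO arrays of 18, 20 and 26 weeks had signals of 7095, 11710.4 and 11007, and the control arrays of those ages 4989.9, 8432 and 10472. On Ndrg4 1426615_s_at the VhlhKO arrays of those ages had 8258, 3584 and 4786, and the control arrays 3672, 3261 and 3138. By Xist and Eif2s3y the arrays of 18 and 20 weeks were both of female type. Between them age and the amount of acinar RNA cannot be told apart. Between the arrays of 20 and 26 weeks age and sex cannot be told apart, with 3 arrays a genotype. Among VhlhKO arrays alone the highest Ndrg signal was between 1.25-fold and 2.37-fold the lowest, on Ndrg2 and Ndrg3 1417664_a_at. Among control arrays it was between 1.17-fold and 2.10-fold, on Ndrg4 1426615_s_at and Ndrg1 1420760_s_at.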
